A study of Mus musculus with 10 samples.

Results

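Ribosomal protein genes of the cytosolic ribosome were examined in the lungs of mice that lack Bpifb1 and of wild-type mice. The members were the protein-coding genes whose whole symbol is Rpl or Rps, a number, an optional letter a, x, l or y and an optional digit. Rpsa, Rplp0, Rplp1 and Rplp2 were added, and the kinase genes named Rps6k were left out. Symbols with other endings, such as Rpl36al and Rpl10-ps3, lay outside the rule. This rule took 83 of the 47333 genes of the count table, 51 for proteins of the large ribosomal subunit and 32 for proteins of the small one. They lie on 19 chromosomes. After removal of genes with low counts 18024 genes were tested, among them 80 members, 49 of the large and 31 of the small subunit.

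RNA was taken from the right middle lung lobe of 10 naive, untreated C57BL/6J mice aged 12 weeks. The knockout group (KO) held 5 mice, 1 male and 4 females, without functional Bpifb1, a gene for a secreted airway protein of the BPI fold family, and the wild-type group (WT) held 5 mice, 2 males and 3 females. The labels do not say how the gene was disrupted, so an allele or a cell type in which it acts cannot be given. Cages held both genotypes, and each library came from 1 mouse. Polyadenylated RNA was sequenced as single reads of 50 bases, and the totals ran from 21357424 to 28321294 estimated counts per mouse.

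Each ribosome joins a large subunit, which forms peptide bonds, to a small subunit, which reads the mRNA, and most ribosomal proteins are present once in each ribosome. Their mRNAs are among the most abundant of nearly every cell and start with a run of pyrimidines after a C, the terminal oligopyrimidine (TOP) motif, through which the kinase complex mTORC1 and the RNA-binding protein Larp1 set their translation and stability. Retrotransposition of these abundant mRNAs has left many processed pseudogenes whose sequence is close to that of the parent gene.

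Pyrimidine runs around the annotated start sites were looked up in the RefSeq promoter sequences (GRCm38.p6), which held 63 of the 83 members. A run of at least 8 letters that were all C or T, searched on the sense strand from 50 bases before to 50 bases after a start, was present in 52 of these 63 genes (82.5%), against 39.3% of the 27025 genes in the table. CTTTC, searched on both strands of the same span and partly overlapping such runs, was present in 63.5% of the members and 26.2% of all genes. CTTCC, searched likewise, was present in 66.7% of the members and 41.1% of all genes. These matches describe letters and are no measure of a start site in these lungs. The 30 bases centred on the start are shown for 5 members with a run, with runs of at least 8 pyrimidines in capitals. Rpl9 and Rps3, the members with the smallest DESeq2 p-values below, are shown too, and their windows hold none. The windows shown are examples and give no share of the family. Many other members, among them Rpl5, Rpl11 and Rplp0, also held no run in these 30 bases, a narrower span than the one searched above.

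Rpl4 (chr9:64173372-64173401, plus strand): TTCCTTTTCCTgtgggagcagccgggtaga
Rpl7a (chr2:26910792-26910821, plus strand): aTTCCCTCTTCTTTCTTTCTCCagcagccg
Rplp2 (chr7:141447636-141447665, plus strand): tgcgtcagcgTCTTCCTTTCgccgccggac
Rps6 (chr4:86857353-86857382, minus strand): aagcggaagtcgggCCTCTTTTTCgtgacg
Rps9 (chr7:3704026-3704055, plus strand): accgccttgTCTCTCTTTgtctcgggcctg
Rpl9 (chr5:65391417-65391446, minus strand): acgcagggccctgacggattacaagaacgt
Rps3 (chr7:99483695-99483724, minus strand): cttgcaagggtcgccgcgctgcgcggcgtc

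The genotype labels were checked with Bpifb1 itself, which stood at 59.7 ± 23.6 CPM in WT and 0.614 ± 0.462 CPM in KO mice (SD, n = 5 each; edgeR's quasi-likelihood test, log2 fold change -6.55 and adjusted p 0.0275). CPM are counts per 1000000 counts of the library after scaling by the trimmed mean of M values. One library stood against its label: KO replicate 5, labelled female, had 1.78 CPM of Xist, the RNA of the inactive X chromosome, where the other 6 mice labelled female had 273.7 to 407.0 CPM and the 3 males 1.29 to 1.73 CPM. The main counts and medians over the members are also given without it. In a whole lobe, fewer cells of a type and less RNA per cell cannot be told apart.

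Levels of the members spread widely. Over the 10 mice the tested members had mean levels of 0.585 to 864.9 CPM, with a median of 152.6 CPM. Per kilobase of annotated exon, the highest were Rplp1 at 986.5, Rps15 at 824.4, Rps3a1 at 544.6, Rpl8 at 504.1 and Rplp0 at 494.2 CPM per kb. Exon length was the union over all annotated transcripts of a gene, for example 499 bases in Rplp1 and 3920 in Rpl5. It can exceed the length of an mRNA, so this order also depends on the annotation. Rplp0 and Rplp1 encode proteins of the stalk that recruits the translation factors to the ribosome. The lowest were Rpl3l at 0.356, Rpl5 at 2.80, Rpl12 at 4.22, Rps7 at 7.16 and Rpl23a at 9.07 CPM per kb. Apart from Rpl3l, the paralog of Rpl3 known from heart and skeletal muscle, these low genes have near-identical copies elsewhere in the genome, described further down.

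The other 3 members had too few counts to be tested. Rpl10l, a paralog of Rpl10 known from testis, had 0 counts in all 10 mice. Rpl39l, the testis paralog of Rpl39, had at most 5 counts in a mouse, 0.112 ± 0.085 CPM in KO and 0.0454 ± 0.0564 CPM in WT (SD, n = 5 each). Rps12 had at most 1 count in a mouse, and the 4 copies matched to it added 0.137 CPM on average, so it is listed close to 0 in these counts.

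Ribosomal protein genes were lower in KO than in WT lungs by a small amount that nearly all of them shared and that none carried past the adjusted threshold. The log2 fold change of KO over WT was below 0 in 79 of 80 members (98.8%), against 50.7% of all tested genes, with a median of -0.21 against -0.0027 over all genes. Short genes leaned the same way: of 1679 other protein-coding genes with 1000 to under 2000 bases of exon, the class that holds the members' median length, 77.2% were below 0 and 19.3% were lower at an unadjusted p under 0.05. By the fold change of the fit with sex as a covariate, the median member stood at 86.4% of its WT level. By edgeR's quasi-likelihood test with sex as a covariate and Benjamini-Hochberg adjustment, 0 of 80 members passed an adjusted p under 0.05, where 0.0166% of all tested genes passed lower in KO and 0.00555% higher, and the smallest adjusted p of a member was 0.121 for Rpl9. At an unadjusted p under 0.05, 67 members were lower and 0 higher in KO, where 8.04% of all tested genes were lower and 8.92% higher. DESeq2's Wald test called 6 members, all lower (0.516% of all genes), and limma-voom called 0. The count at an unadjusted p dropped to 48 without KO replicate 5, with a median of -0.19, where 6.31% of all genes were lower. It was 25 without KO replicate 1 (5.75% of all genes) and 30 without WT replicate 1 (4.68% of all genes).

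**Figure D1:**
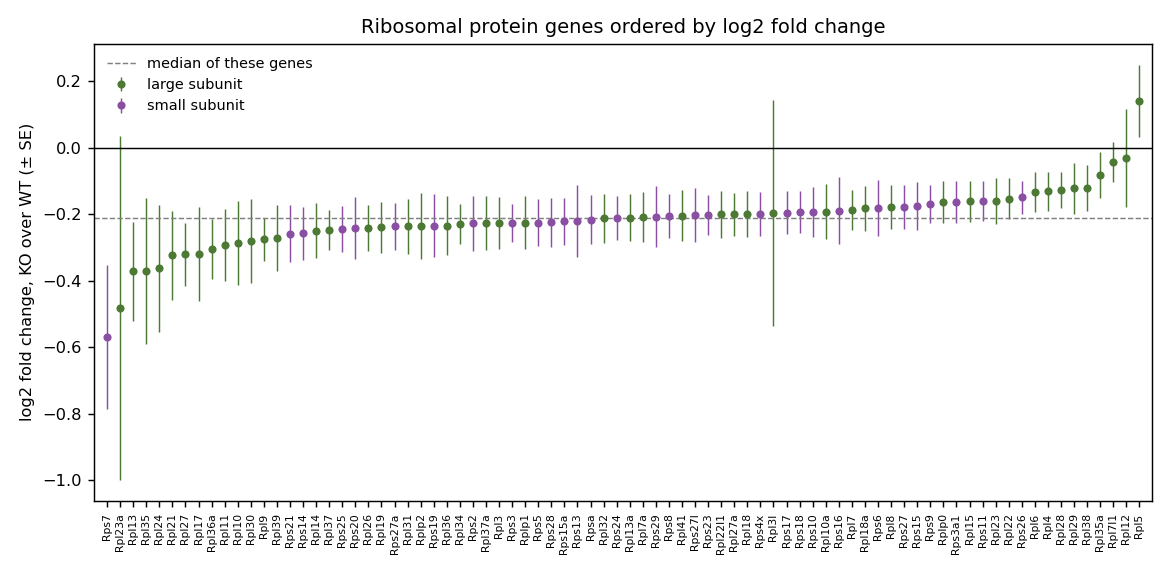
Log2 fold change of KO over WT (vertical axis, points with SE bars, edgeR) for the 80 tested ribosomal protein genes, ordered from lowest to highest, green for the large and purple for the small subunit. All points but that of Rpl5 lie below 0, and the dashed line marks the median of -0.21.

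Summed over all 83 members, the level was 15179.5, 16907.9, 18112.5, 17231.2 and 15725.9 CPM in KO replicates 1 to 5. In WT replicates 1 to 5 it was 20961.4, 19946.8, 17314.8, 18310.1 and 17851.0 CPM. KO replicates 1 and 5 were the lowest and WT replicates 1 and 2 the highest, while KO replicate 3 lay above WT replicates 3 and 5, so the groups overlapped. The means were 16631.4 ± 1178.8 CPM in KO and 18876.8 ± 1525.1 CPM in WT (SD, n = 5 each). As a share of all counts without scaling, the members took 1.53% to 1.82% in KO and 1.73% to 2.10% in WT mice, and their mean share in KO was 88.9% of that in WT. Both subunits showed the same order of mice at the ends: the large-subunit genes summed to 9244.0 ± 648.7 CPM in KO and 10479.0 ± 861.3 CPM in WT, and the small-subunit genes to 7387.5 ± 530.8 and 8397.8 ± 664.0 CPM (SD, n = 5 each).

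**Figure D2:**
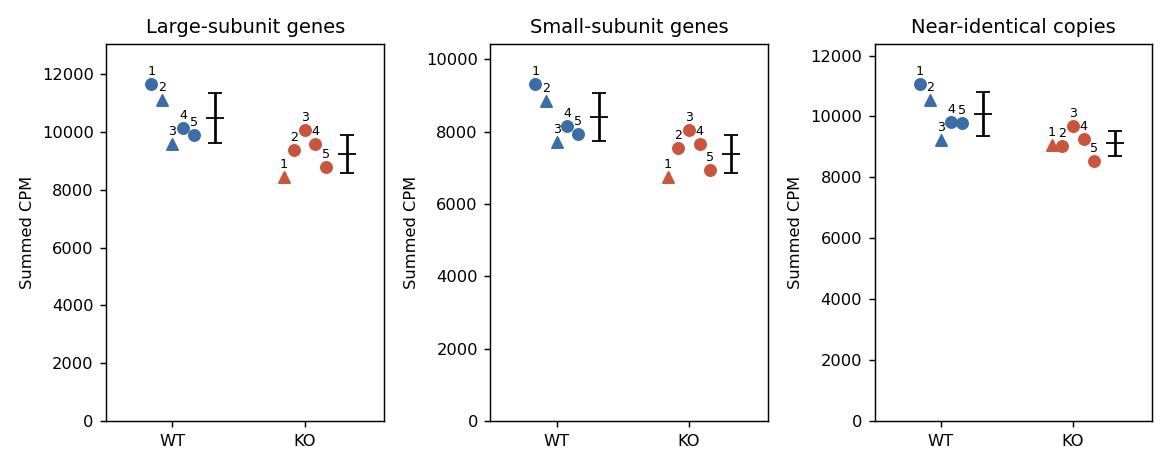
Summed CPM (vertical axis from 0) of the large-subunit genes, the small-subunit genes and their near-identical copies in each mouse, numbered by replicate, with triangles for males, circles for females and bars for mean and SD (n = 5). In each panel WT replicates 1 and 2 are the highest and the groups overlap.

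WT replicate 1 had the highest level of 68 of the 80 tested members and WT replicate 2 of 7. KO replicate 1 had the lowest level of 50 and KO replicate 5 of 20. The median deviation of the members from their own mean over mice was -0.24 (log2) in KO replicate 1, -0.17 in KO replicate 5, 0.24 in WT replicate 1 and 0.18 in WT replicate 2, and between -0.05 and 0.06 in the other 6 mice. In these 6 mice the genotypes lay side by side. Beside these values, the 366 tested protein-coding genes outside the family with under 1000 bases of exon had median deviations of -0.07, -0.11, 0.22 and 0.12 in the same 4 mice. In KO replicate 2 these short genes were also at -0.07, where the members were at -0.05, and in the other 5 mice they lay between -0.04 and 0.03. The relation of annotated exon length to the difference is described with the length classes below.

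**Figure D3:**
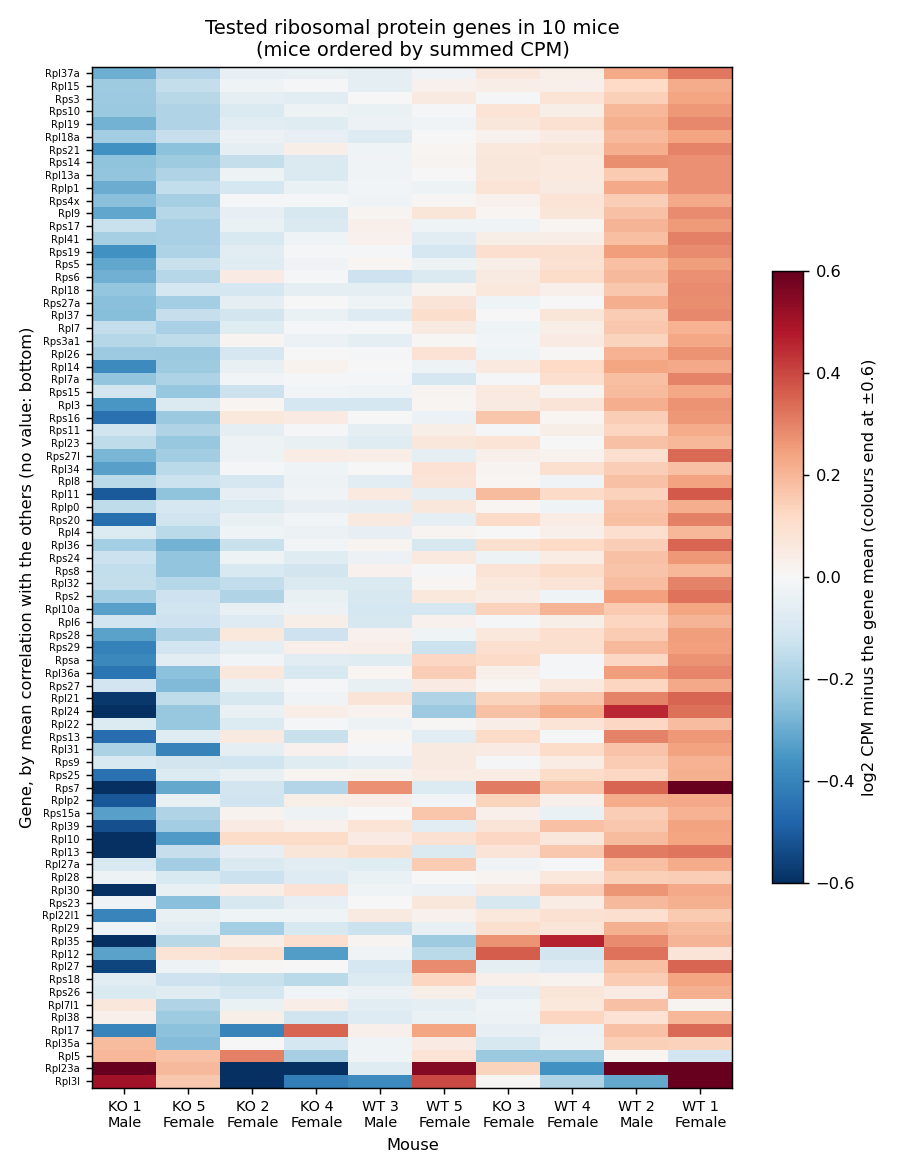
Heat map of log2 CPM minus the mean of the gene for the 80 tested ribosomal protein genes (lines) in the 10 mice (columns, ordered by summed CPM), with colours that end at 0.6 in both directions. KO replicates 1 and 5 at the left are lower and WT replicates 2 and 1 at the right are higher for nearly all genes.

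Among large-subunit genes, 48 of 49 had a log2 fold change below 0, and the median was -0.21. At an unadjusted p under 0.05, 39 were lower, where 8.04% of all tested genes were. Without KO replicate 5 it was 27, where 6.31% of all genes were lower. Rpl9 (ENSMUSG00000047215, GRCm38 chromosome 5, 65388364 to 65391444, minus strand), whose protein sits near the site where translation factors bind, had 157.4, 189.0, 196.9, 183.0 and 173.5 CPM in KO replicates 1 to 5. In WT replicates 1 to 5 it had 238.1, 221.3, 197.7, 205.6 and 205.9 CPM. All KO values lay below all WT values, by less than 1 CPM at the closest pair, and the log2 fold change was -0.27 (SE 0.06; edgeR adjusted p 0.121). DESeq2 gave the same fold change with an adjusted p of 0.00907. Rpl37 had 87.2 ± 6.0 CPM in KO and 101.4 ± 9.3 CPM in WT (edgeR adjusted p 0.132), and Rpl34 had 153.9 ± 14.7 and 176.6 ± 8.1 CPM (edgeR adjusted p 0.136), with log2 fold changes of -0.25 and -0.23. Their ranges overlapped.

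Rpl7 had 510.6, 536.6, 554.3, 559.4 and 493.2 CPM in KO replicates 1 to 5 and 650.5, 629.8, 560.3, 576.9 and 584.3 CPM in WT replicates 1 to 5. The groups did not overlap, with KO replicate 4 and WT replicate 3 the closest pair, and the log2 fold change was -0.19 (SE 0.06; edgeR adjusted p 0.184). Rpl27 had 31.8 ± 4.7 CPM in KO and 37.9 ± 5.3 CPM in WT, with KO replicate 1 alone at 23.5 CPM (log2 fold change -0.32, edgeR adjusted p 0.165). Rpl11, which with Rpl5 and the 5S ribosomal RNA forms the particle that also binds the p53 regulator Mdm2, had 106.2 ± 18.7 CPM in KO and 125.3 ± 13.8 CPM in WT (log2 fold change -0.29, edgeR adjusted p 0.221). Rpl5 was the member above 0, at 11.4 ± 1.9 CPM in KO and 10.5 ± 0.862 CPM in WT (edgeR log2 fold change 0.14 ± 0.11 SE, adjusted p 0.532).

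The stalk genes were lower in KO by amounts close to the family median. Rplp0 had 735.9 to 824.9 CPM in KO and 784.7 to 951.7 CPM in WT (log2 fold change -0.16, edgeR adjusted p 0.233). The log2 fold change was -0.23 for both Rplp1 (edgeR adjusted p 0.204) and Rplp2 (edgeR adjusted p 0.266). Rplp0 is also a common reference gene for PCR, as are Rpl13a, Rps18 and Rpl19. Rpl13a had 551.8 ± 46.0 CPM in KO and 629.0 ± 53.9 CPM in WT (log2 fold change -0.21), Rps18 had 178.9 ± 9.5 and 203.3 ± 17.3 CPM (-0.19), and Rpl19 had 351.3 ± 32 and 408.0 ± 40.6 CPM (-0.24), with edgeR adjusted p of 0.193, 0.193 and 0.182. In each of these 4 reference genes the groups overlapped.

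Among small-subunit genes, all 31 tested had a log2 fold change below 0, and the median was again -0.21. At an unadjusted p under 0.05, 28 were lower, where 8.04% of all tested genes were. Without KO replicate 5 it was 21, where 6.31% of all genes were lower. Rps3 (ENSMUSG00000030744, chromosome 7, 99477896 to 99483738, minus strand), whose protein lines the channel by which mRNA enters, had 436.6, 488.5, 504.1, 485.6 and 452.7 CPM in KO replicates 1 to 5. In WT replicates 1 to 5 it had 598.2, 560.3, 508.5, 538.5 and 527.2 CPM. The groups did not overlap (log2 fold change -0.23, SE 0.06, edgeR adjusted p 0.134), and by DESeq2 the adjusted p was 0.0101. Rps23, a protein of the decoding centre, had 54.6 to 64.0 CPM in KO and 64.9 to 75.3 CPM in WT, also without overlap (log2 fold change -0.20, edgeR adjusted p 0.166). In all, 4 of 80 members had lower KO ranges that did not overlap with WT (Rpl9, Rps3, Rps23 and Rpl7), where this held for 0.921% of all tested genes, and 0 had higher ones, where it held for 0.96%.

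Rps25, needed for translation from some internal ribosome entry sites, had 149.1 ± 19.0 CPM in KO and 170.9 ± 9.1 CPM in WT (log2 fold change -0.24, edgeR adjusted p 0.151). Rps6, the classic substrate of the S6 kinases, had 131.6 ± 13.5 and 145.9 ± 17.5 CPM (log2 fold change -0.18, edgeR adjusted p 0.299). Rps19, mutated in Diamond-Blackfan anaemia, had 310.5 ± 37.4 and 358.4 ± 40.4 CPM (log2 fold change -0.23, edgeR adjusted p 0.241). Rpsa, also known as the laminin receptor, had 205.8 ± 25.2 and 231.1 ± 21.7 CPM (log2 fold change -0.22, edgeR adjusted p 0.195). Each of these genes overlapped between the groups.

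Paralogs within the family were compared with their parents. Rpl22l1 had 21.6 ± 2.5 CPM in KO and 24.2 ± 0.851 CPM in WT (log2 fold change -0.20, edgeR adjusted p 0.202), and its parent Rpl22 had 183.5 ± 12.7 and 203.1 ± 12.3 CPM (-0.15, edgeR adjusted p 0.241). Rps27l, a p53 target, had a log2 fold change of -0.20 (edgeR adjusted p 0.239) and its parent Rps27 one of -0.18 (edgeR adjusted p 0.218). Rpl7l1 had 64.7 ± 4.2 CPM in KO and 67.3 ± 4.7 CPM in WT (log2 fold change -0.04, edgeR adjusted p 0.765). Rpl3l had 0.548 ± 0.198 CPM in KO and 0.622 ± 0.276 CPM in WT, from 9 to 23 counts per mouse (edgeR adjusted p 0.812), where Rpl3 had 254.8 ± 26.7 and 290.7 ± 30.6 CPM (log2 fold change -0.23, edgeR adjusted p 0.199). Whether a paralog differs from its parent in its change was not tested. The members on the X chromosome, where Rps4x has no Y-linked partner in mice, were Rpl36a, Rpl10, Rpl39 and Rps4x, with log2 fold changes of -0.30, -0.29, -0.27 and -0.20.

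For many members a large part of the counts lay in copies of near-identical sequence. Whether these counts came from the member or from the copy was not tested. Of the non-zero values of all genes 30.1% were not whole numbers (more than 0.01 away). In 77 of 83 members more than 50% of the gene's non-zero values were not whole, as in estimates that share reads among similar transcripts. These are different measures, and the share of all genes above 50% was not counted. Of the members 80 shared at least some 50-base words, the length of a read, with other genes (median 20.0% of a member's words, at most 81.1% in Rpl36). A copy was defined as a pseudogene or protein-coding gene with at least 50% of its own words found in 1 member. There were 174 copies of 64 members, 166 of them pseudogenes, and for 31 members the copies held more counts than the member.

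Rpl5 had 11.0 CPM on average and its processed pseudogene Gm15500 on chromosome 7 had 501.4 CPM, with 969 shared words that made up 99.9% of the pseudogene. Rps7 had 14.4 CPM and Gm6472 on the X chromosome 367.7 CPM. Rpl12 had 15.2 CPM and Gm10275 on chromosome 10 339.2 CPM. Rpl10 had 44.8 CPM and Rpl10-ps3, annotated as protein-coding on chromosome 9, 349.0 CPM. In these genes the member itself held 2.14%, 2.88%, 3.90% and 10.6% of the summed counts. Single bases separate some members from their copies, as in the coding sequence of Rps7 and Rpl11 (GENCODE M21). Positions are counted from 1 at the first base of the member's coding sequence, and the base that differs is in capitals. For Rps7 the change shown is T26G, 1 of 3 such single differences from Gm6472. For Rpl11 it is G86A, the 1 found from Gm10288, with the member's base first in both. The same search found 0 such differences between Rpl5, Rpl12 or Rpl10 and the copies named above.

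Rps7: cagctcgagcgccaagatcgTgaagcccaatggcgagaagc
Gm6472: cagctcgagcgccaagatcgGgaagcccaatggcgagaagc
Rpl11: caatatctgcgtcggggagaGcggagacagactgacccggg
Gm10288: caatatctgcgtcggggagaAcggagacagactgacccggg

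With the counts of the copies added to each member, the family became more even. The coefficient of variation of the mean levels over the tested members dropped from 89.1% to 55.9%. Rpl5 then had 491.8 ± 30.6 CPM in KO and 533.7 ± 30.8 CPM in WT (SD, n = 5 each), and its log2 fold change turned from 0.14 to -0.13 (SE 0.06, edgeR adjusted p 0.301), so all 80 tested members were below 0, as they also were without KO replicate 5, where Rpl5 was at -0.09. Rps7, at -0.57 the lowest member, moved to -0.20, Rpl23a from -0.48 to -0.10, and Rpl12 from -0.03 to -0.20. The members at both ends of the range without copies, Rps7, Rpl23a and Rpl5, held 2.88%, 4.25% and 2.14% of the counts summed with their copies. In contrast, 16 tested members with under 10% of their words in other genes were all below 0, 13 at an unadjusted p under 0.05, with a median of -0.22. The 97 tested copies had a median of -0.17, with 89 below 0 and 33 lower at an unadjusted p under 0.05. Over all tested genes 8.04% were lower at that p.

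**Figure D4:**
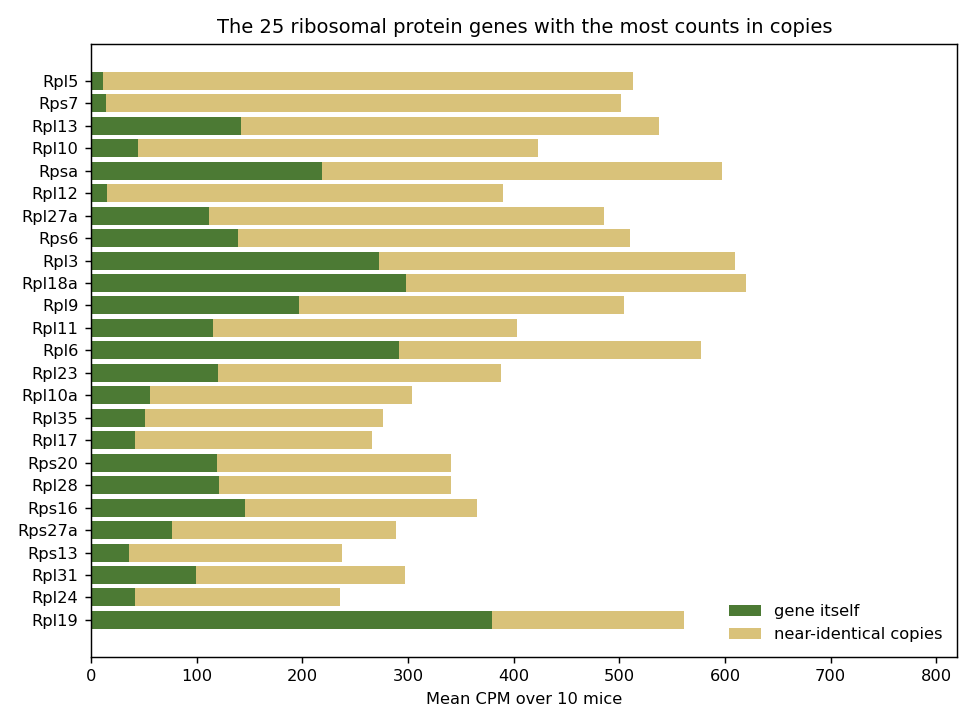
Mean CPM over 10 mice (horizontal axis) of the 25 ribosomal protein genes with the most counts in near-identical copies, split into the gene itself (green) and its copies (sand). For Rpl5, Rps7 and Rpl12 nearly the whole bar belongs to the copies.

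Between the sexes, 0 of 80 members passed the adjusted threshold by edgeR's quasi-likelihood test (0.449% of all tested genes were called higher and 0.133% lower in males), and DESeq2 and limma-voom also called 0. At an unadjusted p under 0.05, 3 members were lower in males (3.75%, against 7.79% of all genes), namely Rpl27 (log2 fold change -0.30), Rps25 (-0.20) and Rpsa (-0.21), and 0 were higher, where 7.34% of all genes were. The log2 fold change of males over females was below 0 in 72 of 80 members, against 51.7% of all genes, with a median of -0.10. Short genes leaned this way too. Of other protein-coding genes with 1000 to under 2000 bases of exon, 65.3% were below 0, with a median of -0.06. In that class 10.5% were lower in males at an unadjusted p under 0.05. Rpl27 had 31.5 ± 7.8 CPM in the 3 males and 36.3 ± 4.6 CPM in the 7 females (SD). The KO mouse labelled male is KO replicate 1, the mouse with the lowest sum, and without it the members' median was -0.03. KO replicate 5, labelled female, had the next lowest sum (15725.9 CPM) and 1.78 CPM of Xist, where KO replicate 1 had 1.73 CPM. Every fit used the labelled sex, so none treated KO replicate 5 as a male. Without WT replicate 2, a male with a high sum, 30 members were lower in males at an unadjusted p, where 7.77% of all genes were. Without WT replicate 5 it was 18, where 7.08% of all genes were lower. Without KO replicate 5, whose Xist level goes against its label, it was 4, where 7.39% of all genes were lower, and the members' median was -0.11. Among the 7 mice labelled female, KO replicate 5 included, the members' KO over WT median was -0.16, with 78 of 80 members below 0. At an unadjusted p under 0.05, 29 were lower, where 6.05% of all genes were. With KO replicate 5 set aside, the 3 KO and 3 WT females gave a median of -0.12, with 77 members below 0. At an unadjusted p 9 were then lower, where 4.22% of all genes were.

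Ribosomal protein genes varied together from mouse to mouse beyond genotype and sex. After both terms were fitted out of the log2 CPM, 78 members with a mean of at least 10 CPM had a median Pearson's r of 0.74 over all their pairs, against 0.0051 over all pairs of 11021 genes. Without KO replicate 5 the members' median was 0.76. Of the member pairs 80.4% had r above 0.5, against 15.1% of all pairs. These values describe 10 libraries that the genes share, and the number of independent mice, not of pairs, limits them. The highest mean r with the other members belonged to Rpl37a (0.81), Rpl15 (0.81) and Rps3 (0.81), and the lowest to Rpl5 (-0.35), Rpl35a (0.26) and Rpl17 (0.38). Rpl5 and Rpl17 have more counts in their copies than in the gene itself.

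Outside the family, the genes whose residuals were most like the mean of the members over the 10 mice were Upp1 (r 0.99), Gm26619 (0.98), Mrpl14 (0.98), Cfl1 (0.98), Smdt1 (0.98), Ssr4 (0.97), Atp6v0b (0.97), Blvrb (0.97), Gle1 (0.97) and Psma3 (0.97). Mrpl14 encodes a mitochondrial ribosomal protein, Cfl1 the actin-severing protein cofilin and Psma3 a proteasome subunit. The lowest r were those of Cul5 (-0.99), Ppm1l (-0.98), Clcn3 (-0.98), Pign (-0.97) and Nrip1 (-0.97), which have 8165 to 17071 bases of annotated exon. Among the 10 genes most like the family, exon length ran from 949 to 6087 bases.

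Genes that share the TOP motif or the ribosome were read from lists, and in each list 0 genes were called by edgeR at an adjusted p under 0.05. Over all tested genes, 50.7% were below 0 and 8.04% were lower in KO at an unadjusted p under 0.05. Among other protein-coding genes with 1000 to under 2000 bases of exon, these shares were 77.2% and 19.3%. Of 22 other TOP mRNAs, among them elongation factors and initiation factor subunits, 21 were below 0 and 11 lower at an unadjusted p, with a median log2 fold change of -0.12. Rack1, a protein of the small subunit outside the naming rule, had 487.8 ± 36.8 CPM in KO and 559.0 ± 42.1 CPM in WT (log2 fold change -0.22, edgeR adjusted p 0.168). The elongation factor subunits Eef1d and Eef1b2 had log2 fold changes of -0.16 and -0.19 (edgeR adjusted p 0.196 and 0.199). Of 7 TOP host genes of small nucleolar RNAs, 6 were below 0 and 2 lower at an unadjusted p, with a median of -0.10, and Snhg6 had the smallest p (log2 fold change -0.32, edgeR adjusted p 0.186).

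Of 78 mitochondrial ribosomal protein genes, whose products build the separate ribosome of the mitochondria, 76 were below 0, with a median of -0.12. At an unadjusted p under 0.05, 25 (32.1%) were lower, where 8.04% of all tested genes were. Mrps16 had 15.3 ± 0.997 CPM in KO and 18.2 ± 2.0 CPM in WT (log2 fold change -0.28, edgeR adjusted p 0.134), and Mrpl46 and Mrpl17 had -0.25 and -0.20 (edgeR adjusted p 0.134 and 0.135). Of 32 tested genes of ribosome assembly, 14 were below 0 and 1 lower at an unadjusted p (Nhp2, log2 fold change -0.23, edgeR adjusted p 0.151), with a median of 0.01. Of 15 genes of mTORC1 and of TOP control, 5 were below 0, 0 lower and 3 higher at an unadjusted p, with a median of 0.06. The 3 were Larp4 (log2 fold change 0.34, edgeR adjusted p 0.125), Larp1 (0.20, edgeR adjusted p 0.134), which binds TOP mRNAs, and Tsc1 (0.16, edgeR adjusted p 0.207), which restrains mTORC1. Over all tested genes 8.92% were higher at an unadjusted p under 0.05. So were 772 of 2576 other protein-coding genes with 8000 or more bases of exon. The part of exon length in these 3 values was not tested.

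Fold changes between the genotypes moved with annotated exon length across the whole table. Protein-coding genes outside the family had a median log2 fold change of -0.11 with under 1000 bases of exon (366 genes), -0.10 from 1000 to under 2000 bases (1679 genes), -0.05 from 2000 to under 4000 (4597 genes), 0.02 from 4000 to under 8000 (5603 genes) and 0.11 with 8000 or more (2576 genes). The tested members had a median of 1776 bases of exon and a lower median fold change than every one of these classes. Exon length was the union over all annotated transcripts of a gene, here and in the offsets and the correlation below. It can exceed the length of an mRNA, so the members were not matched to a class by mRNA length. With offsets for exon length and GC content, the members' median was -0.13, with 78 of 80 below 0. At an unadjusted p under 0.05, 37 members were lower, where 6.89% of all genes were. Without KO replicate 5 the members' median with offsets was -0.12, with 77 below 0. Of the members 19 were then lower at an unadjusted p, where 5.45% of all genes were. Within the family the log2 fold change hardly followed exon length (Spearman's rho 0.04 over 80 genes, which share the libraries and are not independent). What underlies the length trend was not tested.

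**Figure D5:**
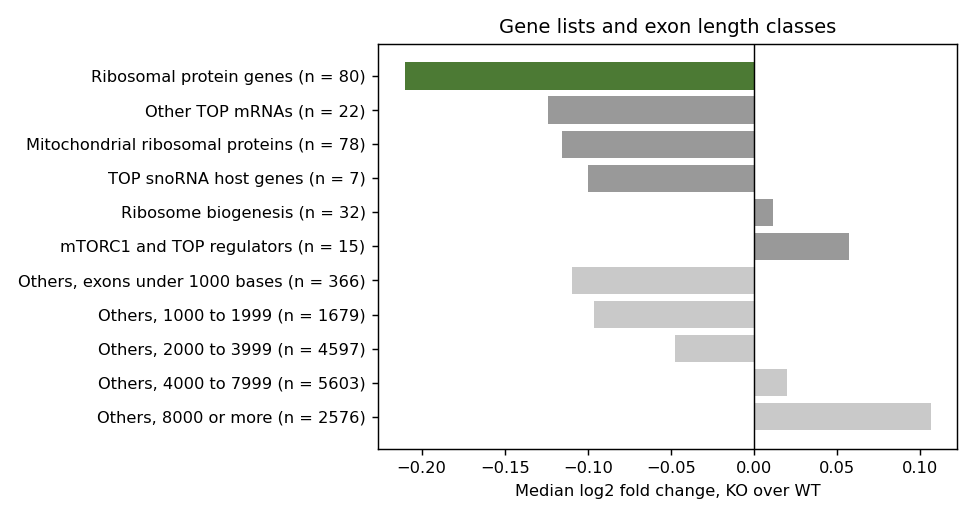
Median log2 fold change of KO over WT (horizontal axis) for the ribosomal protein genes (green), related gene lists (dark grey) and other protein-coding genes by bases of annotated exon (light grey), with the number of tested genes. The ribosomal protein genes have the lowest bar, at -0.21, and the length classes step from -0.11 to 0.11.

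Markers of alveolar type 2 cells, the surfactant-making cells of the lung, were read beside the family. Of 5 markers, 3 were lower in KO at an unadjusted p under 0.05, where 8.04% of all tested genes were. The other 2 had log2 fold changes above 0. The median was -0.17, the range ran from -0.23 to 0.06, and edgeR called 0 of the markers. Their summed level ran from 21448.9 to 24550.2 CPM in KO and from 22251.1 to 27006.5 CPM in WT mice, so the groups overlapped, with WT replicates 1 and 2 the highest. Their part in the difference of the ribosomal protein genes was not tested.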

How the data were processed

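The authors deposited 1 table of estimated counts (expected counts per gene, not scaled between samples) for the 10 mice. FastQC, MultiQC, STAR 2.6.0 and Salmon 0.9.1 and the builds mm10 and GRCm38 are named per the submitters' processing notes, without a role. The annotation and the strand setting of the counting are not given in the sources used here. Libraries were stranded and read once for 50 bases, per the labels' protocols. Each column belonged to 1 sample, and 0 were left over.

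Estimated counts were rounded to whole numbers. Identifiers were looked up in GENCODE M21 (GRCm38) for symbols, positions and exons, which matched 47281 genes and left 52 unmatched. Genes were kept by filterByExpr (minimum count 10, minimum total 15) and tested with edgeR 4.0.16 in R 4.3.3 (quasi-likelihood, robust, genotype plus sex, two-sided, Benjamini-Hochberg over 18024 genes). The SE was derived from the log2 fold change and its F statistic. Log2 CPM used a prior count of 2. The test was also run on simulated counts in which the genes were drawn independently of each other. That run does not measure how the test treats a small shift shared by genes that vary together. Alternatives were DESeq2 1.42.0, limma-voom (limma 3.58.1), other scalings and filters, no covariate, females alone, offsets for length and GC content (lowess, span 0.3), copies added to members (added after seeing the data) leaving out each mouse, and KO replicate 5 set aside in addition to 3 of these settings (also added after seeing the data).

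The members, the gene lists and the settings were chosen with earlier results of these data known. The members named were the 5 with the smallest p in each direction for genotype and sex, the 5 highest and 5 lowest per kilobase, paralogs with their parents, reference and stalk genes, Rpl5, Rpl11, Rps6 and Rps19, and the 3 highest and lowest by mean correlation. Outside the family they were Bpifb1, up to 3 per list by smallest p, and the 10 most and 5 least alike. Rpl36, Rpl36a, Rpl13 and the copies were named after their values were seen. Counting error alone allows 3 counts where 0 were found. The P-values measure the spread between mice.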

Additional observations from a re-analysis of the deposited data

Results flagged for a closer look

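In the KO group 1 mouse stood far from the other 4 for 2 of the named genes. Rpl22l1 had 17.3 CPM in KO replicate 1 and 22.1 to 23.8 CPM in the other KO mice. Rpl27 had 23.5 CPM in KO replicate 1 and 33.0 to 34.6 CPM in the other KO mice. In each case the gap to the nearest mouse was more than 0.71 of the range of the group, which chance gives in about 1 in 20 groups, so 4.9 of the 98 groups examined would be marked by chance and 2 were. The KO mouse labelled male is the same mouse, and it had the lowest level of 50 of the 80 tested members.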

How the results depend on the processing

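The median log2 fold change of KO over WT stayed below 0 in every setting run. The count of members called between KO and WT was 0 in all settings except DESeq2, which called 6. The count lower in KO at an unadjusted p under 0.05 was 67. It became 29 in females alone (9 with KO replicate 5 set aside), 37 with length and GC offsets (19 with that mouse set aside) and 3 of the 4 members with whole counts. When single mice were left out it ranged from 25 (without KO replicate 1) to 71 (without WT replicate 5). Over all tested genes the share lower ran from 4.22% (females alone, KO replicate 5 set aside) to 8.98% (without WT replicate 3). The count called between the sexes ranged from 0 to 1 when single mice were left out, the 1 (Rpl27, adjusted p 0.0389) without WT replicate 4. The count lower in males at an unadjusted p was 5 by DESeq2, 1 with copies summed (0 with KO replicate 5 set aside), 0 without the covariate, 7 without a filter and 0 among members with whole counts. It ranged from 0 to 30 when single mice were left out. Over all tested genes the share lower in males ran from 5.31% (without a filter) to 8.48% (without WT replicate 4). The median r between members was 0.84 without genotype and sex terms, 0.79 at a mean of at least 50 CPM, and 0.67 (without WT replicate 2) to 0.82 (without KO replicate 1) when single mice were left out.

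The settings that set KO replicate 5 aside were chosen after seeing the data. With 0 members past the threshold in the main fit, keeping its side was the likely outcome. The settings share mice, and the members with whole counts were read from the main fit itself, so the values are not independent repeats. Of 938 KO over WT values for 39 named members under 25 settings, 923 kept direction and side of the threshold, 5 passed it (DESeq2) and 10 changed sign. For KO over WT these were Rpl12 (0.14 in females alone, 0.13 with KO replicate 5 set aside too, 0.0097 with offsets, and from -0.12 to 0.14 over the mice left out, above 0 without KO replicate 1, KO replicate 4 or WT replicate 2), Rpl3l (from -0.67 to 0.079 over the mice left out, above 0 without WT replicate 1), Rpl7l1 (0.022 with offsets and KO replicate 5 set aside) and Rpl5 (-0.13 with copies summed, -0.089 with that mouse set aside). For males over females, Rpl23a ran from -0.11 to 0.86 and Rps23 from -0.011 to 0.093 over the mice left out, both below 0 without KO replicate 1. Rpl5 was -0.034 with copies summed, and with that mouse set aside Rpl5 was -0.054 and Rps23 -0.0058. The causes were not tested. No paired analysis was possible because the labels give no replicate numbers that link KO and WT mice. The levels of members with most counts in copies may depend on how shared reads were split, which was not tested.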

Other observations

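Markers of other cell types of the lung were counted in the same fit. By edgeR's quasi-likelihood test 0 genes of the marker lists were called at an adjusted p under 0.05. The median log2 fold change of KO over WT was -0.13 for 4 club cell markers and -0.07 for 4 alveolar type 1 markers, of which 0 and 1 were lower at an unadjusted p under 0.05. It was -0.06 for 6 alveolar macrophage markers, -0.03 for 5 ciliated cell markers, -0.07 for 6 T cell markers, -0.04 for 5 B cell markers, -0.09 for 5 smooth muscle markers and -0.04 for 5 markers of proliferating cells. It was 0.01 for 5 markers of capillary endothelium, 0.06 for 5 fibroblast markers, 0.01 for 5 markers of red cells, 0.19 for 5 markers of cardiac muscle and 0.03 for the 2 tested markers of skeletal muscle or brown fat. Summed levels in KO were 90.8% of WT for the club cell markers, all 4 of which were below 0, 89.7% for the alveolar macrophage markers and 110.7% for the cardiac muscle markers, each with overlapping groups.

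The nuclear RNAs Malat1 and Neat1 had 1620.2 ± 243.9 and 917.4 ± 80.3 CPM in KO mice. In WT mice the levels were 1487.8 ± 140.6 and 965.7 ± 36.0 CPM (SD, n = 5 each), with edgeR adjusted p of 0.579 and 0.471. Malat1 was highest in KO replicate 5 and Neat1 was also highest there. CT010467.1, annotated as ribosomal RNA, ran from 11578.5 CPM in KO replicate 1 to 55940.1 CPM in WT replicate 2.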
